A study of Mus musculus with 21 samples.

Results

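The gene expression of hearts with an intact Taz gene was compared between 2 genetic backgrounds, CAST-F1 and BL6J. Taz encodes tafazzin, an acyltransferase of mitochondria that finishes the fatty acid composition of cardiolipin. The samples were chosen by their labels alone and made up 7 of the 21 libraries of the series. The 3 CAST-F1 WT libraries came from male mice of the strain CAST-F1 with the genotype TAZ WT/Y, aged 2 months. The 4 BL6J WT libraries came from male mice of the strain BL6J with the same genotype and age, and the study's design text calls this background C57/J. All of these animals were littermates of Taz knockout males, and RNA was taken from ventricular tissue. The labels name neither the second parent strain of the F1 animals nor the direction of the cross. Nor do they state that every library represents its own animal, and the tests therefore compare the groups with the variation among these samples, which may be technical. The other groups used here were AJ-F1 WT (TAZ WT/Y, 4 libraries), CAST-F1 KO (TAZ KO/Y, 3 libraries), BL6J KO (TAZ KO/Y, 4 libraries) and AJ-F1 KO (TAZ KO/Y, 3 libraries), all labelled as hearts of males aged 2 months.

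CAST strains descend from wild mice of the subspecies Mus musculus castaneus, whereas C57BL/6J is a classical laboratory strain and the source of the mouse reference genome. An F1 animal carries a chromosome set from each of its parent strains, and an F1 male has an X from its mother and a Y from its father. The heart muscle of mice relies on oxidation of fatty acids in mitochondria, uses the fast α-myosin of Myh6 as its main motor after birth, and re-expresses fetal genes such as Myh7, Nppa and Acta1 under load.

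Total counts ran from 5644877 to 6762988 reads in CAST-F1 WT and from 4322220 to 6777826 reads in BL6J WT. Levels are given in CPM, read counts scaled to a common library size and composition, as mean ± SD (n = 3 in CAST-F1 WT and 4 in BL6J WT), and differences as log2 fold changes of CAST-F1 WT over BL6J WT ± standard error. A gene was called when edgeR's quasi-likelihood test gave it a p-value under 0.05 after Benjamini-Hochberg adjustment across the 12333 genes tested. Taz was not called, at 43.3, 56.2 and 36.5 CPM in the CAST-F1 WT libraries, against 43.8, 47.4, 42.1 and 41.9 CPM in the BL6J WT libraries (log2 fold change 0.05 ± 0.19, adjusted p = 0.931). The hearts had the transcripts of heart muscle. Myh6 averaged 26406 ± 4483 CPM in CAST-F1 WT and 26497 ± 2176 CPM in BL6J WT, and Tnnt2, the cardiac troponin T gene, averaged 10129.8 ± 2142 CPM in CAST-F1 WT and 9195 ± 457 CPM in BL6J WT. The Y-linked genes Ddx3y, Eif2s3y, Kdm5d and Uty were present in every library, and between CAST-F1 WT and BL6J WT none was called or had an unadjusted p under 0.05. With the 7 control libraries fitted alone, Ddx3y was called higher in CAST-F1 WT (adjusted p = 0.0371). These Y-linked genes summed to 21.5 CPM in library 3 of AJ-F1 WT and to 54.1 CPM in library 4, both labelled male, against 102 to 172 CPM in the other 19 libraries. Eif2s3y was called lower in AJ-F1 WT than in BL6J WT (log2 fold change -0.99 ± 0.26, adjusted p = 0.0401). The cause was not tested. AJ-F1 WT 3 and 4 enter the fit through the shared spread, so results are also given without them, an alternative chosen after seeing the data. Their removal moved the AJ-F1 WT averages given here by over 1.5 times only for Gapdh-ps15, Rpl34-ps1, Hbb-b1 and Hmga1b, where the value without them is added. Profiles of log2 CPM correlated with r of 0.976 to 0.983 within CAST-F1 WT, 0.973 to 0.98 within BL6J WT and 0.948 to 0.961 between the groups.

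Of the 12333 genes, 707 were called (5.73%), 415 of them higher in CAST-F1 WT (3.36%) and 292 lower (2.37%). Differences were often large, and 338 of the called genes differed by more than 2-fold. Beyond 8-fold, 50 genes were higher and 11 lower in CAST-F1 WT. The libraries of the groups did not overlap for 696 of the 707 called genes, against 24.3% of all genes tested. The median log2 fold change over all genes was 0.01. The number of calls depended on which libraries entered the fit. Without AJ-F1 WT 3 there were 1122 calls, and without AJ-F1 WT 3 and 4 there were 1460. With the 7 control libraries fitted alone the count was 1467, and with the 11 WT libraries alone it was 290. Leaving out CAST-F1 WT 1, 2 or 3 gave 305, 421 and 405 calls, and leaving out BL6J WT 1, 2, 3 or 4 gave 590, 440, 532 and 468.

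**Figure D1:**
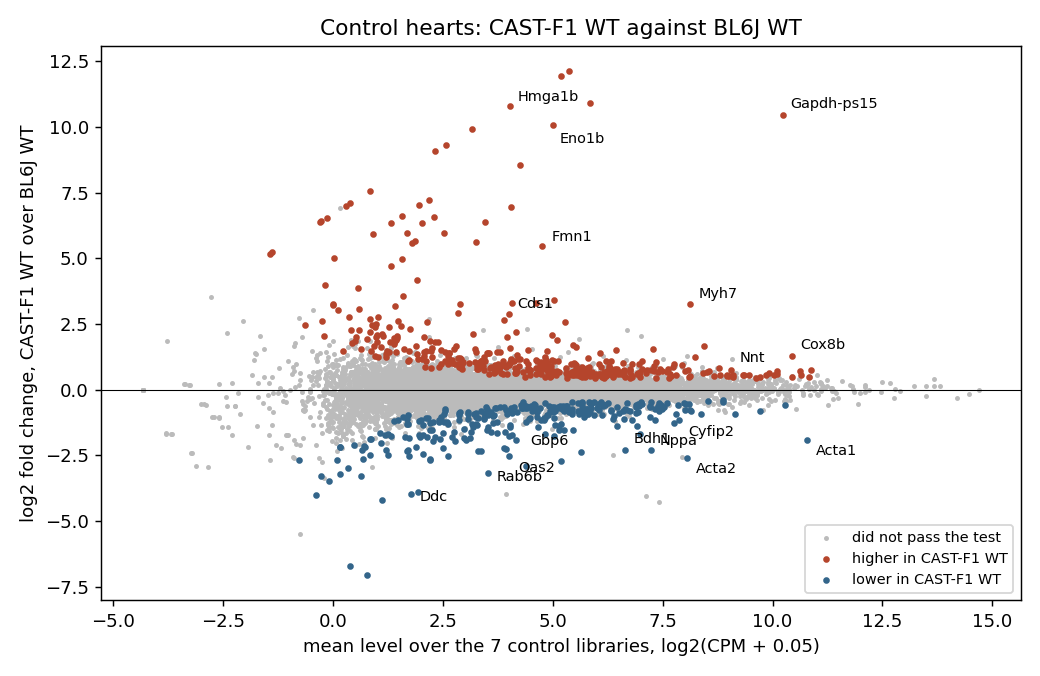
Log2 fold change of CAST-F1 WT over BL6J WT against the mean level over the 7 control libraries, log2(CPM + 0.05), for 12333 genes. Grey points did not pass the test; the 415 red genes were higher and the 292 blue genes lower in CAST-F1 WT. The points far above 5 are genes with almost no reads in BL6J WT, for which the plotted fold change depends on a prior count.

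Genes of the mitochondrial respiratory chain were higher in CAST-F1 WT hearts wherever they were called, and so was Nnt. Nnt encodes the transhydrogenase of the inner mitochondrial membrane that makes NADPH for peroxide defence, and C57BL/6J mice carry a known multi-exon deletion in it. Nnt (chromosome 13, 119335527 to 119409257, GRCm38) had 688, 754 and 637 CPM in the CAST-F1 WT libraries, against 443, 358, 446 and 388 CPM in the BL6J WT libraries. Every CAST-F1 WT library lay above every BL6J WT library, and the difference passed the test (log2 fold change 0.76 ± 0.13, adjusted p = 0.000975). Reads of Nnt were thus still counted in BL6J WT, at 409 ± 43.1 CPM. In AJ-F1 WT hearts, Nnt averaged 600.3 ± 95.1 CPM. Cox7a2l, a respiratory supercomplex gene whose protein differs between C57BL/6 and other strains, did not pass (-0.21 ± 0.12, adjusted p = 0.374).

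Cox8b, the heart and muscle form of cytochrome oxidase subunit VIII, showed the largest difference among the respiratory chain genes called. It stood at 2286, 2214 and 1722 CPM in the CAST-F1 WT libraries, against 864, 971, 869.9 and 735 CPM in the BL6J WT libraries (chromosome 7, 140898942 to 140900446). The lowest CAST-F1 WT library was thus far above the highest BL6J WT library (log2 fold change 1.27 ± 0.17, adjusted p = 5.13e-05). Of 44 genes of complexes II to V tested, 8 were higher and 0 lower, against a background of 3.36% higher. They were Cox8b, Cox6c, Cox4i1, Cox5a, Cox5b and Cox7c of cytochrome oxidase, Uqcrh of complex III and Atp5g3 of ATP synthase. Apart from Cox8b, their log2 fold changes ran from 0.48 for Cox5b to 0.64 for Cox6c. Cox6c averaged 1226 ± 203 CPM in CAST-F1 WT and 786 ± 89.5 CPM in BL6J WT. The median over the 44 genes was 0.29, against 0.01 over all genes. Of 36 complex I genes, 3 were higher and 0 lower with a median of 0.28, and Ndufb2, an accessory subunit gene, differed most (256 ± 54.9 CPM in CAST-F1 WT and 150.2 ± 10.2 CPM in BL6J WT; log2 fold change 0.77 ± 0.16, adjusted p = 0.0058). The count for complexes II to V ranged from 1 to 9 when a control library was left out and was lowest without CAST-F1 WT 1, and that for complex I ranged from 0 to 4 and was lowest without CAST-F1 WT 2. AJ-F1 WT over BL6J WT had similar medians, 0.29 for complexes II to V and 0.26 for complex I, against 0.03 over all genes. Complexes II to V summed to 69140, 70460 and 55430 CPM in the CAST-F1 WT libraries, against 51750 to 55180 CPM over the BL6J WT libraries. Complex I summed to 19000, 19990 and 15350 CPM in the CAST-F1 WT libraries, against 13530 to 16190 CPM over the BL6J WT libraries. CAST-F1 WT 3 thus lay close to BL6J WT for the first sum and within its range for the second. In AJ-F1 WT, complexes II to V summed to 75220 and 64590 CPM in libraries 3 and 4, and to 57700 and 50380 CPM in libraries 1 and 2. In CAST-F1 WT against AJ-F1 WT, complexes II to V had 1 gene higher and 0 lower. Complex I had 0 higher and 1 lower, against backgrounds of 2.26% higher and 3% lower.

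Of 18 genes of mitochondrial redox and peroxide defence, 4 were higher and 2 lower, while over all genes 3.36% were higher and 2.37% lower. With a control library left out, 2 to 4 were higher and 0 to 2 lower, both fewest without CAST-F1 WT 1. Besides Nnt these included Glrx2, a mitochondrial glutaredoxin gene (39.98 ± 4.14 CPM in CAST-F1 WT and 21.1 ± 2.79 CPM in BL6J WT; log2 fold change 0.92 ± 0.17, adjusted p = 0.00251), and Idh2, the NADP-dependent isocitrate dehydrogenase gene (2182 ± 322 CPM in CAST-F1 WT and 1571 ± 115 CPM in BL6J WT; log2 fold change 0.47 ± 0.12). The malic enzyme gene Me3 was also higher (0.49 ± 0.14). Cat, the catalase gene, was lower at 309 ± 25.4 CPM in CAST-F1 WT and 417 ± 18.2 CPM in BL6J WT, and so was Mthfd2, a folate enzyme gene (-1.88 ± 0.43). Idh2 was the only member called among 17 tricarboxylic acid cycle genes (5.88%, against 5.73% of all genes tested). Hadh, a β-oxidation dehydrogenase gene, was the single call among 36 genes of fatty acid uptake and oxidation, or 2.78% (log2 fold change 0.45 ± 0.12, adjusted p = 0.0312). Bdh1, which encodes the mitochondrial enzyme that interconverts the main ketone bodies and was named after its value was seen, was far lower in CAST-F1 WT. Its levels were 25.3, 33.4 and 32.7 CPM in the CAST-F1 WT libraries, against 235, 176, 92.6 and 98.9 CPM in the BL6J WT libraries (log2 fold change -2.31 ± 0.33, adjusted p = 0.000128). The groups did not overlap, and BL6J WT 1 and 2 were higher than BL6J WT 3 and 4. In AJ-F1 WT, Bdh1 averaged 196 ± 57.6 CPM, and the test of CAST-F1 WT against AJ-F1 WT gave -2.68 ± 0.33 (adjusted p = 2.32e-05).

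Among 17 genes of cardiolipin and phospholipid remodelling, the list that holds Taz, 1 was called (5.88%, about the share of all genes tested, 5.73%). Cds1 (chromosome 5, 101765093 to 101823858) encodes a CDP-diacylglycerol synthase, an enzyme that supplies precursors of phosphatidylinositol and of phosphatidylglycerol and cardiolipin. It had 34.0, 28.6 and 31.3 CPM in the CAST-F1 WT libraries, against 2.31, 4.78, 4.32 and 5.62 CPM in the BL6J WT libraries (log2 fold change 2.89 ± 0.27, adjusted p = 3.06e-07). AJ-F1 WT hearts were at 3.80 ± 1.18 CPM, and CAST-F1 WT differed from them by 3.02 ± 0.26 (adjusted p = 1.19e-07). In the knockout hearts Cds1 stood at 9.93 ± 0.693 CPM in CAST-F1 KO and 2.89 ± 0.701 CPM in BL6J KO (log2 fold change 1.79 ± 0.30, adjusted p = 0.000716).

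**Figure D2:**
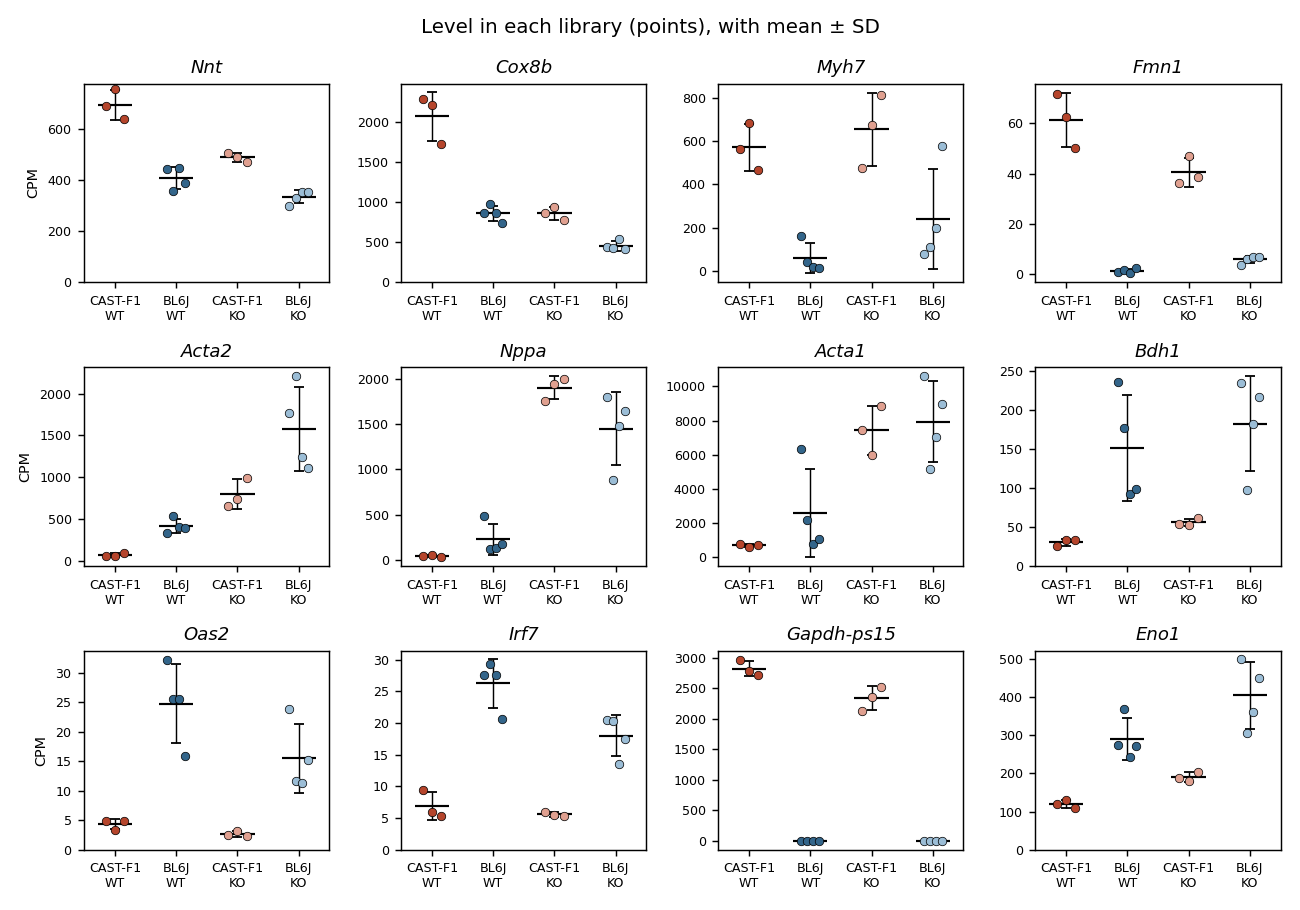
CPM of 12 genes in each library of 4 groups, with points for libraries and bars for mean ± SD; WT hearts have an intact Taz and KO hearts lack it. CAST-F1 WT lies above BL6J WT for Nnt, Cox8b, Myh7, Fmn1 and Gapdh-ps15 and below it for Acta2, Nppa, Bdh1, Oas2, Irf7 and Eno1, with no overlap; for Acta1 the highest CAST-F1 WT library lies above the lowest BL6J WT library.

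Fetal and load-responsive muscle genes moved in opposite directions. Myh7, the slow β-myosin gene (chromosome 14, 54970684 to 54994626; its span overlaps the annotated antisense transcript Mhrt), had 562, 681 and 467 CPM in the CAST-F1 WT libraries, against 159, 43.0, 16.6 and 13.8 CPM in the BL6J WT libraries. The lowest CAST-F1 WT library was above the highest BL6J WT library, and BL6J WT 1 stood above the other BL6J WT libraries (log2 fold change 3.28 ± 0.72, adjusted p = 0.0118). With the 7 control libraries fitted alone, Myh7 was no longer called. The adult isoform Myh6 was not called (0.00 ± 0.17, adjusted p = 0.994). Nppa, the atrial natriuretic peptide gene, was lower in CAST-F1 WT, at 47.7, 54.6 and 35.5 CPM in the CAST-F1 WT libraries, against 486, 118, 129.7 and 182 CPM in the BL6J WT libraries (log2 fold change -2.32 ± 0.56, adjusted p = 0.0172). Acta1, the skeletal actin gene, had 763, 573 and 691 CPM in the CAST-F1 WT libraries, against 6339, 2148, 753 and 1068 CPM in the BL6J WT libraries (log2 fold change -1.93 ± 0.52, adjusted p = 0.0317). BL6J WT 1 was the highest library for Nppa and Acta1, and without it the log2 fold change of Acta1 was -0.97 and no longer passed. Nppa and Acta1 lost their calls when any CAST-F1 WT library was left out. Nppb, the gene of the B-type peptide, did not pass (log2 fold change -0.85 ± 0.48, adjusted p = 0.366).

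Acta2 encodes smooth muscle actin and is also expressed by fetal heart muscle. It was lower in CAST-F1 WT, at 50.5, 59.7 and 93.9 CPM in the CAST-F1 WT libraries, against 334, 533, 404 and 389 CPM in the BL6J WT libraries (log2 fold change -2.61 ± 0.27, adjusted p = 1.67e-06). Uchl1, a ubiquitin hydrolase gene, was lower too (4.80 ± 0.472 CPM in CAST-F1 WT and 11.97 ± 1.26 CPM in BL6J WT; log2 fold change -1.31 ± 0.25, adjusted p = 0.00318). In all, 1 of 22 hypertrophy and fetal genes was higher and 4 were lower, against a background of 2.37% lower. In bulk RNA, fewer cells of a type and less RNA per cell cannot be told apart. Of 11 smooth muscle and pericyte markers, Acta2 was lower and Myh11, the smooth muscle myosin gene, was higher (35.5 ± 8.74 CPM in CAST-F1 WT and 18.7 ± 4.93 CPM in BL6J WT; log2 fold change 0.93 ± 0.26, adjusted p = 0.038), while the summed level of the 11 markers ran from 5822 to 6386 CPM over the CAST-F1 WT libraries and 5492 to 6786 CPM over the BL6J WT libraries. Acta2 and Myh11 made up little of this sum, which rests mostly on the other markers. Of 3 skeletal muscle markers tested, Myl1, a fast myosin light chain gene, was lower. It had 7.40, 12.5 and 6.20 CPM in the CAST-F1 WT libraries, against 69.0, 65.7, 44.2 and 49.96 CPM in the BL6J WT libraries (log2 fold change -2.71 ± 0.29, adjusted p = 2.04e-06). The markers Ckm, the muscle creatine kinase gene (log2 fold change 0.19 ± 0.17, adjusted p = 0.619), and Atp2a1, a calcium pump gene (log2 fold change -0.14 ± 0.52, adjusted p = 0.931), were not called, and the list summed to 3304 to 4041 CPM over the CAST-F1 WT libraries and 3144 to 3711 CPM over the BL6J WT libraries. This sum is almost all Ckm, which in AJ-F1 WT 1 and 2 made up 4316 of 4405 CPM and 3260 of 3324 CPM. It therefore does not measure the other skeletal muscle markers. Casq1, the skeletal form of the calcium-storage protein calsequestrin, was likewise lower (6.74 ± 1.74 CPM in CAST-F1 WT and 22.9 ± 4.28 CPM in BL6J WT; log2 fold change -1.77 ± 0.25, adjusted p = 0.000117). AJ-F1 WT hearts had Myl1 at 82.7 ± 16.2 CPM and Casq1 at 27.8 ± 3.30 CPM.

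Other genes of contraction and conduction were called about as often as all genes tested (5.73%), at 7.41% of sarcomere and Z-disc genes, 7.69% of calcium handling genes and 6.06% of ion channel genes. Of 27 sarcomere and Z-disc genes, Myom2, an M-band gene (1401 ± 288 CPM in CAST-F1 WT and 867 ± 62.2 CPM in BL6J WT), was higher and Pdlim5, a Z-disc gene (590.3 ± 89.3 CPM in CAST-F1 WT and 1038 ± 174 CPM in BL6J WT), was lower. Of 26 calcium handling genes, Casq1 was lower, and Atp2a2, the calcium pump gene, did not pass (log2 fold change 0.15 ± 0.17, adjusted p = 0.683). Of 33 ion channel genes, Aqp4, a water channel gene, and Kcnv2, a modifier of potassium channels, were lower (-2.22 ± 0.51 and -1.27 ± 0.32). None of 25 genes of adrenergic, muscarinic and peptide receptors and none of 36 extracellular matrix genes was called by edgeR. At an unadjusted p under 0.05 there were 6 receptor genes and 9 matrix genes, DESeq2's Wald test called 0 and 1, and limma-voom called 7 and 3. Irx3, a transcription factor gene of the ventricular conduction system, was the single call among 25 cardiac transcription factor genes, or 4% (67.6 ± 8.89 CPM in CAST-F1 WT and 41.2 ± 5.47 CPM in BL6J WT; log2 fold change 0.72 ± 0.21, adjusted p = 0.045). Myom2 lost its call under 13 of the 19 other settings, so its difference is at the limit of the test.

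Of 47 interferon response genes tested, 13 were lower in CAST-F1 WT hearts, 1 was higher and 33 were not called. Such genes encode antiviral proteins, and cells induce them through transcription factors that bind a promoter element known as ISRE. Its core was searched as 2 GAAA blocks with 2 bases between them, on either strand, and the promoter stretches below, from RefSeq (GRCm38.p6), are shown with each match in capitals as examples of genes called lower that hold the core; most of the genes called lower are not shown.
Ifit1, chr19:34640754-34640843, + strand: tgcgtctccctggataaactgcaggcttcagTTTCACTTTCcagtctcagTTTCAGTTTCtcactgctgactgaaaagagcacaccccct
Ifit3, chr19:34583350-34583439, + strand: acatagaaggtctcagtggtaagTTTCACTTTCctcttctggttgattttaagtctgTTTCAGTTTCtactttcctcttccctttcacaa
Oas1a, chr5:120907526-120907615, - strand: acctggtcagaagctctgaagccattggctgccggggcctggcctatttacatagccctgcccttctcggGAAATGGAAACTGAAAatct
In Oas1a the 2 matches overlap. Of the 8 interferon response genes called lower that have a promoter in the RefSeq table, 4 hold the core in the 250 bases before to 50 after the start (50%), against 20 of 25 of the other interferon response genes tested (80%) and 3.7% of all genes tested. Ifit3b has the same 90-base stretch as Ifit3, and reads of such near-identical neighbours can be shared or lost in counting, so that their separate levels are uncertain.

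The backgrounds for these counts were 2.37% lower and 3.36% higher. Oas2, which encodes an enzyme that makes the RNase L activator 2-5A, had 4.81, 3.34 and 4.82 CPM in the CAST-F1 WT libraries, against 32.1, 25.6, 25.5 and 15.9 CPM in the BL6J WT libraries. No CAST-F1 WT library reached the lowest BL6J WT library (log2 fold change -2.52 ± 0.31, adjusted p = 1.6e-05). Its neighbour Oas1a was at 0.555, 0.635 and 1.38 CPM in the CAST-F1 WT libraries, against 5.38, 7.45, 2.73 and 4.61 CPM in the BL6J WT libraries (log2 fold change -2.54 ± 0.47, adjusted p = 0.00217). Irf7, the transcription factor that amplifies the interferon response, had 9.43, 6.04 and 5.34 CPM in the CAST-F1 WT libraries, against 27.5, 29.2, 27.5 and 20.7 CPM in the BL6J WT libraries (log2 fold change -1.92 ± 0.34, adjusted p = 0.0012). Gbp6, a guanylate-binding protein gene, averaged 14.7 ± 1.87 CPM in CAST-F1 WT and 75.9 ± 33.6 CPM in BL6J WT. Ifit3, an antiviral RNA-response gene, averaged 3.53 ± 0.956 CPM in CAST-F1 WT and 12.5 ± 5.52 CPM in BL6J WT (log2 fold change -1.83 ± 0.36, adjusted p = 0.00341), and Ifit1 averaged 2.95 ± 0.701 CPM in CAST-F1 WT and 6.97 ± 2.63 CPM in BL6J WT (log2 fold change -1.25 ± 0.31, adjusted p = 0.0204). The remaining lower genes were Ifit3b, Oasl1, Oasl2, Usp18, Ifi27l2a, Ifi44 and Zbp1, with log2 fold changes of -4.02 for Zbp1 to -1.22 for Ifi27l2a. Zbp1, a sensor of Z-form nucleic acids, had 1 read in CAST-F1 WT and 27 in BL6J WT, so that BL6J WT exceeded CAST-F1 WT by a ratio of 22.4 (95% counting interval 3.69 to 917). Xaf1, a pro-apoptotic interferon target, was the exception and was higher (20.6 ± 4.29 CPM in CAST-F1 WT and 7.57 ± 2.69 CPM in BL6J WT; log2 fold change 1.43 ± 0.26, adjusted p = 0.00207).

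Irf9, a gene of the signalling upstream, did not pass, at 20.1 ± 0.590 CPM in CAST-F1 WT and 26.2 ± 4.00 CPM in BL6J WT. The median over the 47 genes was -0.50, and 21 of them had CAST-F1 WT libraries below all BL6J WT libraries, against 11.2% of all genes. The knockout libraries entered the comparison of controls only through the shared spread, gene filter and scaling of the fit. Among them, 12 interferon response genes were lower in CAST-F1 KO than in BL6J KO and 1 was higher, against backgrounds of 2.98% and 2.14%. The median over the 47 genes was -0.57 in that comparison. In AJ-F1 WT against BL6J WT, which used the same BL6J WT libraries, 6 of the 47 were lower and 0 higher. The backgrounds there were 1.26% lower and 1.99% higher, and the median was -0.32. In CAST-F1 WT against AJ-F1 WT, 8 were lower and 2 higher, against backgrounds of 3% and 2.26%. Macrophage markers, whose cells express many of these genes, summed to 154 to 324 CPM over the CAST-F1 WT libraries and 257 to 511 CPM over the BL6J WT libraries. Of 13 such markers edgeR called 0 (5 at an unadjusted p under 0.05), DESeq2's Wald test 1 and limma-voom 1, and their median log2 fold change was -0.66. In knockouts, 4 of the 13 were lower and 0 higher in CAST-F1 KO than in BL6J KO, with a median of -1.39. The backgrounds there were 2.98% lower and 2.14% higher. The part of macrophages in the interferon difference was not tested. Of 23 antigen presentation genes, H2-Q7, a class Ib gene, was lower (2.02 ± 1.28 CPM in CAST-F1 WT and 7.09 ± 0.685 CPM in BL6J WT), and H2-K1 and H2-D1 did not pass (0.17 ± 0.23 and 0.15 ± 0.24). H2-Q7 was the only call in that list (4.35%, against 5.73% of all genes tested). The count of 13 lower genes ranged from 8 (without CAST-F1 WT 1) to 13 when a control library was left out.

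**Figure D3:**
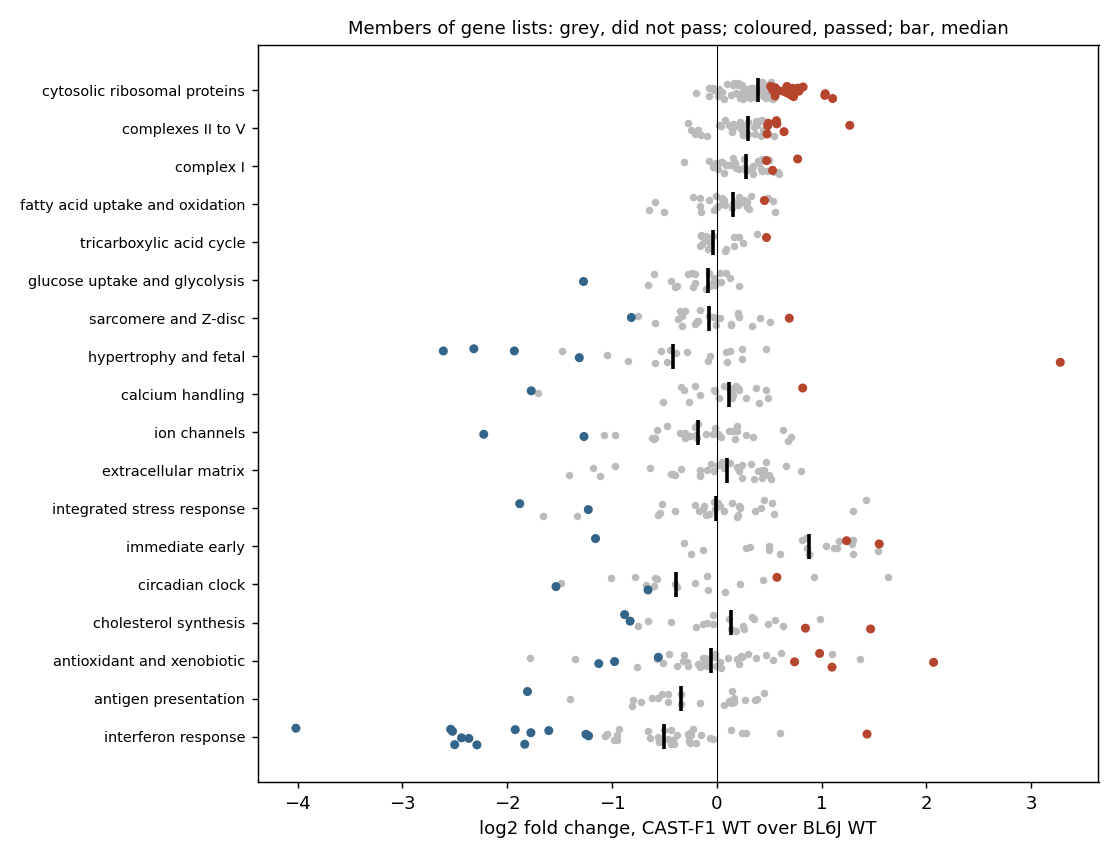
Log2 fold change of CAST-F1 WT over BL6J WT for each tested member of 18 gene lists, with a bar at the median of each list; red points were called higher, blue points lower and grey points not called. The 21 calls among ribosomal protein genes and the 8 among complexes II to V are all positive, and 13 of the 14 calls among interferon response genes are negative.

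Some cytosolic ribosomal protein genes were higher in CAST-F1 WT. Of 83 tested, 21 were higher, 0 lower and 62 not called, against a background of 3.36% higher, and the log2 fold changes of those called ran from 0.51 for Rpl10 to 1.11 for Rps28. Rps29, of the small subunit, had 222, 257 and 216 CPM in the CAST-F1 WT libraries, against 136, 124, 109 and 83.3 CPM in the BL6J WT libraries. Rps19, whose human counterpart is mutated in Diamond-Blackfan anaemia, averaged 138 ± 3.32 CPM in CAST-F1 WT and 67.3 ± 9.30 CPM in BL6J WT (log2 fold change 1.03 ± 0.18, adjusted p = 0.000921). The median over all 83 genes was 0.39 and 78 had a positive value. Their summed level ran from 30670 to 32000 CPM over the CAST-F1 WT libraries and 20510 to 27970 CPM over the BL6J WT libraries, without overlap. In the knockout libraries 12 of the 83 were higher in CAST-F1 KO and 0 lower, against a background of 2.14% higher, with a median of 0.29. Many of these genes have processed copies in the genome, so that their counts depend on how multiply aligned reads were treated, which is not given in the sources used here. Calls among the 83 numbered 8 to 22 when a control library was left out, and were fewest without CAST-F1 WT 1, and there were 7 with only the 11 WT libraries fitted.

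Several of the largest differences were in intronless or recent copies of other genes. Gapdh-ps15, a processed pseudogene of Gapdh on chromosome Y (38619739 to 38620971), was named after its value was seen. It had 2957, 2780.2 and 2719 CPM in the CAST-F1 WT libraries, against 2.15, 3.25, 0.228 and 2.01 CPM in the BL6J WT libraries, with 49284 reads in CAST-F1 WT together and 42 in BL6J WT (log2 fold change 10.47 ± 0.48, adjusted p = 1.86e-12). AJ-F1 WT hearts had 3.05 ± 2.86 CPM, or 1.38 CPM without AJ-F1 WT 3 and 4. The 2 genes are nearly identical, as the same 75 bases of both GENCODE transcripts show, with the differing bases in capitals.
Gapdh, transcript Gapdh-201 (chromosome 6), bases 240 to 314: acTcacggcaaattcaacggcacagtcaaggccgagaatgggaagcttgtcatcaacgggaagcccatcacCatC
Gapdh-ps15, transcript Gapdh-ps15-201 (chromosome Y), bases 148 to 222: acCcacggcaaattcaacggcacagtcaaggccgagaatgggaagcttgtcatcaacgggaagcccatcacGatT
These bases hold 3 of the 5 mismatches over the 1002 aligned bases, an identity of 99.5%. Reads of the pair can be told apart at few positions, so that their separate counts are uncertain. Gapdh itself had 10417 ± 698 CPM in CAST-F1 WT and 12186 ± 1607 CPM in BL6J WT (log2 fold change -0.23 ± 0.20, adjusted p = 0.586). With the reads of both added together, an alternative chosen after seeing the data, the level was 13240 ± 818 CPM in CAST-F1 WT and 12190 ± 1610 CPM in BL6J WT (log2 fold change 0.12, adjusted p = 0.803).

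Other genes formed such pairs. Eno1b, a copy of the glycolytic enolase gene Eno1 with 99.5% identity over 1652 aligned bases, had 1309 reads in CAST-F1 WT and 1 in BL6J WT, a ratio of 1580 (95% counting interval 283 to 62400). Eno1 was called lower, at 119.8 ± 10.5 CPM in CAST-F1 WT and 289.9 ± 54.7 CPM in BL6J WT (log2 fold change -1.27 ± 0.23, adjusted p = 0.00154), and was the only call among 24 genes of glucose uptake and glycolysis (4.17%, against 5.73% of all genes tested). Eno1 and Eno1b added together gave -0.58 (adjusted p = 0.131), which did not pass. Hmga1b, whose coding bases equal those of the chromatin protein gene Hmga1, had 671 reads in CAST-F1 WT and 0 in BL6J WT, which puts it at least 270-fold higher when BL6J WT is set to the 3 counts that a group total of 0 allows. Hmga1 was called lower (61.3 ± 8.94 CPM in CAST-F1 WT and 114 ± 12.8 CPM in BL6J WT; log2 fold change -0.90 ± 0.22, adjusted p = 0.0161), and the sum of both was not (-0.20, adjusted p = 0.703). Ppp1cc, a catalytic subunit gene of protein phosphatase 1, lost its call in the same way when its copy Ppp1ccb was added (-0.50 alone, 0.13 together, adjusted p = 0.576).

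Amd2, a copy of Amd1, which encodes an enzyme of polyamine synthesis, had 18.3, 33.0 and 24.6 CPM in the CAST-F1 WT libraries, against 0.461, 0.573, 0 and 0 CPM in the BL6J WT libraries. Rpl34-ps1 averaged 44.1 ± 4.44 CPM in CAST-F1 WT and 0.0979 ± 0.113 CPM in BL6J WT, and Rpl37rt, a retrotransposed copy of Rpl37, averaged 38.0 ± 4.96 CPM in CAST-F1 WT and 0.254 ± 0.306 CPM in BL6J WT. Pdcd5-ps, named after its value was seen, had 198 reads in CAST-F1 WT and 2 in BL6J WT, a ratio of 119 (interval 32.6 to 993). Their parent genes Amd1, Rpl34, Rpl37 and Pdcd5 were not called, alone or with the copy added. Amd1 was close to a call alone (log2 fold change -0.75, adjusted p = 0.055) and was called lower under 7 of the 19 other settings. With Amd2 added it was at -0.29 (adjusted p = 0.519). The AJ-F1 WT level was 37.7 ± 9.73 CPM for Eno1b and 62.7 ± 28.6 CPM for Hmga1b (39.3 CPM without AJ-F1 WT 3 and 4), but 0.614 ± 0.346 CPM for Amd2, 0.152 ± 0.123 CPM for Rpl34-ps1 (0.0722 CPM without them) and 0.143 ± 0.193 CPM for Rpl37rt. Intervals and floors cover counting error only.

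Other differences lay in loci known to vary between mouse strains. Hbb-b1, an adult β-globin gene of the haplotype that C57BL/6J lacks, had 250 reads in CAST-F1 WT and 0 in BL6J WT, at least 101-fold higher. Its CAST-F1 WT libraries ranged widely, at 1.85, 27.0 and 12.1 CPM, and the call was lost under 12 of the 19 other settings. Erythroid markers, which follow the blood left in a heart, summed to 15.2 to 198 CPM over the CAST-F1 WT libraries and 13.5 to 2469 CPM over the BL6J WT libraries. H2-Ea-ps, the class II gene that C57BL/6 mice do not express, had 71 reads against 0, at least 28.5-fold higher, and was named after its value was seen. AJ-F1 WT hearts had 94.2 ± 103 CPM of Hbb-b1 (23.1 CPM without AJ-F1 WT 3 and 4) and 2.66 ± 1.29 CPM of H2-Ea-ps. Nlrp1a, an inflammasome sensor gene of a variable cluster, was higher at 3.82 ± 1.18 CPM in CAST-F1 WT and 0.908 ± 0.510 CPM in BL6J WT (log2 fold change 2.06 ± 0.53, adjusted p = 0.0235). Glo1, the glyoxalase gene whose copy number varies between strains, averaged 101 ± 15.2 CPM in CAST-F1 WT and 68.5 ± 7.15 CPM in BL6J WT (log2 fold change 0.55 ± 0.15, adjusted p = 0.0297) and 139 ± 22.2 CPM in AJ-F1 WT. Cyfip2, a regulator of actin assembly, was lower at 153, 137 and 124 CPM in the CAST-F1 WT libraries, against 301, 249, 334 and 346 CPM in the BL6J WT libraries (log2 fold change -1.16 ± 0.14, adjusted p = 1.01e-05). In all, 3 of 26 genes of known strain loci were higher and 1 was lower, while over all genes, 3.36% were higher and 2.37% lower. With a control library left out, 1 or 2 were higher, fewest without CAST-F1 WT 1. Outside these loci, Gm36712, a predicted protein-coding gene that overlaps Son, had 1482 reads in CAST-F1 WT and 0 in BL6J WT, at least 596-fold higher, and 119 ± 45.2 CPM in AJ-F1 WT. Gm4737, another predicted gene, had 361 reads and 0, at least 145-fold higher, and 0 reads in AJ-F1 WT.

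Further genes close to silent in BL6J WT included Gucy2e, a guanylate cyclase gene of photoreceptors (155 reads in CAST-F1 WT and 1 in BL6J WT), and Ceacam2, an adhesion molecule gene (181 and 1). Myo16, an unconventional myosin gene, had 117 reads in CAST-F1 WT and 1 in BL6J WT. Fmn1, which encodes the actin nucleator formin 1, stood at 71.6, 62.6 and 50.1 CPM in the CAST-F1 WT libraries, against 0.922, 1.72, 0.455 and 2.41 CPM in the BL6J WT libraries (chromosome 2, 113327664 to 113716768; log2 fold change 5.46 ± 0.35, adjusted p = 6.91e-10). The ephrin receptor gene Ephb1, named after its value was seen, had 65.8, 66.9 and 71.1 CPM in the CAST-F1 WT libraries, against 8.45, 6.49, 4.55 and 5.42 CPM in the BL6J WT libraries (log2 fold change 3.42 ± 0.22, adjusted p = 6.91e-10). Fam81a and Retsat were named in the same way. Fam81a averaged 73.8 ± 9.76 CPM in CAST-F1 WT and 12.5 ± 1.15 CPM in BL6J WT, and Retsat, a retinol saturase gene, averaged 247 ± 35.2 CPM in CAST-F1 WT and 84.8 ± 11.9 CPM in BL6J WT. AJ-F1 WT hearts were at 25.6 ± 9.94 CPM for Fmn1, 37.2 ± 8.26 CPM for Ephb1, 12.96 ± 3.35 CPM for Fam81a and 113 ± 26.8 CPM for Retsat.

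The largest falls were ranked among called protein-coding genes that reached 5 CPM in a group and whose libraries did not overlap. The first 12 included Myl1, Acta2 and the interferon response genes Oas1a, Oas2, Ifi44 and Gbp6, and 6 others. Ddc, which encodes the decarboxylase of dopamine and serotonin synthesis, had 0.370, 0.477 and 0.172 CPM in the CAST-F1 WT libraries, against 6.46, 5.16, 5.69 and 5.22 CPM in the BL6J WT libraries (log2 fold change -3.96 ± 0.40, adjusted p = 8.74e-07). Rab6b, a Golgi GTPase gene, stood at 2.03, 2.07 and 1.89 CPM in the CAST-F1 WT libraries, against 18.9, 20.6, 18.4 and 15.6 CPM in the BL6J WT libraries (log2 fold change -3.19 ± 0.30, adjusted p = 4.37e-07), and AJ-F1 WT hearts were also low at 1.58 ± 0.749 CPM. Egf, the epidermal growth factor gene, averaged 1.09 ± 0.218 CPM in CAST-F1 WT and 7.11 ± 1.82 CPM in BL6J WT, and Stbd1, a glycogen-binding protein gene, averaged 1.14 ± 0.950 CPM in CAST-F1 WT and 7.17 ± 2.48 CPM in BL6J WT. Adam22, a gene of the ADAM family, averaged 1.60 ± 0.808 CPM in CAST-F1 WT and 9.43 ± 2.50 CPM in BL6J WT and Ccl6, a chemokine gene of myeloid cells, 4.38 ± 2.04 CPM in CAST-F1 WT and 33.0 ± 28.4 CPM in BL6J WT. Ccl6 was at 16.3, 73.9, 11.6 and 30.3 CPM in the BL6J WT libraries, and its call was lost without BL6J WT 2, CAST-F1 WT 2 or CAST-F1 WT 3.

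Of the protein-coding genes called by at least 1.5-fold without overlap, the most highly expressed that were higher in CAST-F1 WT were Tpt1, the translationally controlled tumour protein gene (2465 ± 105 CPM in CAST-F1 WT and 1463 ± 221 CPM in BL6J WT; log2 fold change 0.75 ± 0.16, adjusted p = 0.00736), Cox8b, Ybx1, a nucleic acid binding protein gene (2025 ± 121 CPM in CAST-F1 WT and 1255 ± 82.4 CPM in BL6J WT), Myom2, Kif1c, a kinesin gene (1357 ± 70.9 CPM in CAST-F1 WT and 903 ± 60.7 CPM in BL6J WT), Cox6c, Nnt and Rps24. The most highly expressed that were lower were Pdlim5, Glul, the glutamine synthetase gene (374 ± 83.3 CPM in CAST-F1 WT and 712 ± 70.8 CPM in BL6J WT; log2 fold change -0.93 ± 0.18, adjusted p = 0.00372), Acta2, Gpx3, a secreted glutathione peroxidase gene (218 ± 41.1 CPM in CAST-F1 WT and 414 ± 80.5 CPM in BL6J WT), Frmd5, Fblim1, a gene of cell-matrix junctions (197 ± 10.1 CPM in CAST-F1 WT and 338 ± 26.5 CPM in BL6J WT; log2 fold change -0.78 ± 0.15, adjusted p = 0.00286), Ndrg4 and Cyfip2. Ndrg4, a gene expressed in heart and brain, had 158, 210.2 and 174 CPM in the CAST-F1 WT libraries, against 304, 305, 308 and 333 CPM in the BL6J WT libraries (log2 fold change -0.79 ± 0.13, adjusted p = 0.000921).

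Calls were spread over all autosomes and were fewer on chromosome X. Of 11913 autosomal genes tested, 688 were called (5.78%), with 4.02% on chromosome 3 and 7.43% on chromosome 7 as the extremes. On chromosome X, 8 of 379 were called (2.11%), and genes there had a lower median level, 13.7 CPM against 21 CPM on autosomes. The share on X was below that on autosomes in all 19 other settings, and at most 0.603 times as high. The X genes were Tspan6, Rpl10, Fundc2 and Rpl36a, which were higher, and Asb11, Porcn, Alas2 and Sh3kbp1, which were lower, and they were named after their values were seen. Fundc2, a mitochondrial outer membrane protein gene, was higher, at 109, 111 and 97.8 CPM in the CAST-F1 WT libraries, against 56.4, 62.1, 59.2 and 59.8 CPM in the BL6J WT libraries (log2 fold change 0.83 ± 0.20, adjusted p = 0.0172). Alas2, the haem synthesis gene of red cells and itself an erythroid marker, had 0, 0.477 and 0.689 CPM in the CAST-F1 WT libraries, against 0, 6.88, 2.73 and 15.6 CPM in the BL6J WT libraries. In the knockout libraries 3 genes on X were called (0.792%), against 5.16% on autosomes. In AJ-F1 WT against BL6J WT, which used the same BL6J WT libraries, the shares were 1.85% on X and 3.27% on autosomes, or 1.32% and 2.23% without AJ-F1 WT 3 and 4. Of 5 genes tested on chromosome Y, Gapdh-ps15 was the only call.

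**Figure D4:**
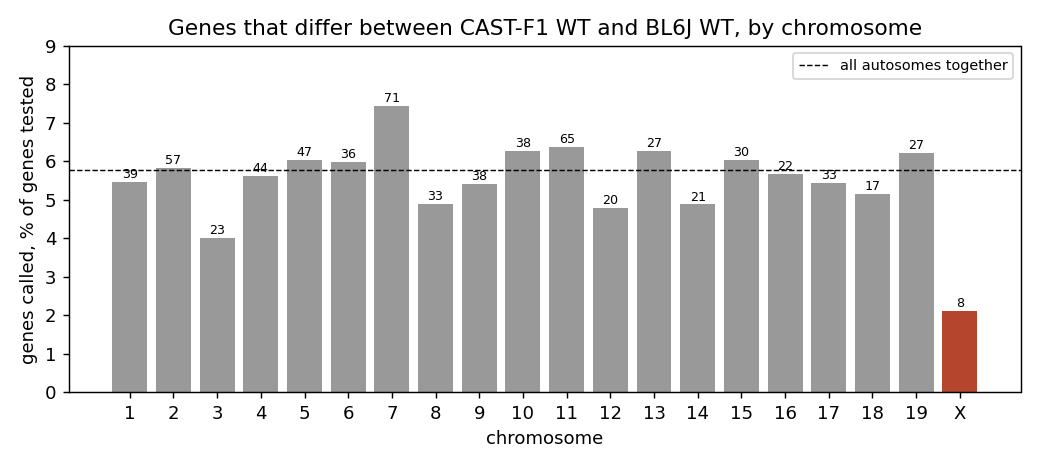
Genes called between CAST-F1 WT and BL6J WT as a percentage of the genes tested on each chromosome, with the number called above each bar and a dashed line for all autosomes together (5.78%). Chromosome X, in red, has 8 calls (2.11%), below every autosome.

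Of 96 different markers of other cell types, 3 were higher (3.12%, against 3.36% of all genes) and 8 lower (8.33%, against 2.37% of all genes). Of 13 fibroblast markers, Mfap5 and Pi16 were lower (-1.30 ± 0.27 and -1.39 ± 0.29), and the list summed to 849.5 to 1748 CPM over the CAST-F1 WT libraries and 1131 to 1592 CPM over the BL6J WT libraries. Of 14 endothelium markers, the angiopoietin receptor gene Tek was higher (106 ± 28.4 CPM in CAST-F1 WT and 59.5 ± 5.98 CPM in BL6J WT), and the list summed to 2361 to 3809 CPM over the CAST-F1 WT libraries and 1949 to 2660 CPM over the BL6J WT libraries. Of 9 mesothelium markers, Lrrn4 and Muc16 were lower, and the list summed to 14.4 to 36.0 CPM over the CAST-F1 WT libraries and 42.0 to 69.6 CPM over the BL6J WT libraries, without overlap. Of 11 atrial markers, Nppa was the only call, and the defining atrial genes Myl7, Myl4 and Sln did not pass (-1.09 ± 1.21, -1.30 ± 1.15 and -1.70 ± 1.30). With standard errors this large, the test could not resolve differences of that size. Only 1 of the 11 markers had a positive log2 fold change, and their median was -1.09. In knockouts, 2 were lower and 0 higher in CAST-F1 KO than in BL6J KO (backgrounds 2.98% and 2.14%), with a median of -1.34. Myl7 was at 5.73, 6.04 and 1.72 CPM in the CAST-F1 WT libraries, against 9.53, 3.25, 8.65 and 17.1 CPM in the BL6J WT libraries, so that the groups overlapped. The atrial list summed to 493 to 627 CPM over the CAST-F1 WT libraries and 769 to 1212 CPM over the BL6J WT libraries. The list holds Nppa itself, and also Pam, which averaged 428 CPM in AJ-F1 WT. Its sum therefore cannot show an atrial part in the difference of Nppa, which was not tested. None of the markers of lymphocytes (1 tested), neutrophils and mast cells (4 tested) or adipocytes (4 tested) was called by edgeR. At an unadjusted p under 0.05 there were 1, 2 and 2 of them, limma-voom called 1, 1 and 2, and DESeq2's Wald test 0, 0 and 1. Irx3 was the single call among 9 conduction and nerve markers, Alas2 among 5 erythroid markers and Myl1 among 3 skeletal muscle markers.

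The same backgrounds were compared in Taz knockout hearts. These share no library with the controls, but all 21 libraries entered the same fit, so both comparisons share its estimate of the spread. There 631 genes were called (5.12%), 264 higher and 367 lower in CAST-F1 KO than in BL6J KO, with 302 calls without CAST-F1 KO 2 and 1398 without AJ-F1 WT 3 and 4. Of the 707 genes called in controls, 671 had the same sign in knockouts (94.9%, against 70.8% of all genes tested). Both comparisons called 280 genes in the same direction, 39.6% of the calls in controls and 44.4% of those in knockouts, and 0 in opposite directions. Nnt was at 488 ± 17.5 CPM in CAST-F1 KO and 334 ± 25.3 CPM in BL6J KO (log2 fold change 0.55 ± 0.13, adjusted p = 0.0155). Cox8b stood at 859.8 ± 84.0 CPM in CAST-F1 KO and 453 ± 61.2 CPM in BL6J KO (log2 fold change 0.92 ± 0.17, adjusted p = 0.00177), and Oas2 at 2.70 ± 0.495 CPM in CAST-F1 KO and 15.5 ± 5.85 CPM in BL6J KO (log2 fold change -2.51 ± 0.34, adjusted p = 7.87e-05). Acta2 was lower in CAST-F1 KO as well, at 796 ± 177 CPM in CAST-F1 KO and 1578 ± 504 CPM in BL6J KO (log2 fold change -0.99 ± 0.25, adjusted p = 0.0215). Of the load-responsive genes, Nppa, Acta1 and Myh7 were not called in knockouts. Nppa had 1897 ± 126 CPM in CAST-F1 KO and 1449 ± 401 CPM in BL6J KO (log2 fold change 0.39 ± 0.50, adjusted p = 0.757), Acta1 had 7425 ± 1445 CPM in CAST-F1 KO and 7935 ± 2355 CPM in BL6J KO (log2 fold change -0.10 ± 0.49, adjusted p = 0.954) and Myh7 had 654 ± 169.5 CPM in CAST-F1 KO and 241 ± 231 CPM in BL6J KO (log2 fold change 1.44 ± 0.68, adjusted p = 0.27). The differences between the background effects in knockouts and in controls did not pass for these genes (adjusted p = 0.416 for Nppa, 0.84 for Acta1 and 1 for Myh7).

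A difference of the background effect between knockouts and controls was called for 4 genes (0.0324% of those tested, 0.0243% upward and 0.00811% downward; 597 at an unadjusted p under 0.05), and for 16 without AJ-F1 WT 3 and 4. Of these, Fmn1 was also called in controls. It stood at 40.6 ± 5.79 CPM in CAST-F1 KO and 5.87 ± 1.41 CPM in BL6J KO, so that its log2 fold change was 2.79 ± 0.30 in knockouts, a change of -2.67 ± 0.48 relative to controls (adjusted p = 0.0479). The other 3 were not called in controls. Kif5a, a kinesin gene of nerve cells, had 52.6 ± 5.40 CPM in CAST-F1 KO and 11.2 ± 1.85 CPM in BL6J KO, and 0.961 ± 0.293 CPM in CAST-F1 WT and 1.44 ± 0.511 CPM in BL6J WT. Bckdhb, which encodes a subunit of the branched-chain ketoacid dehydrogenase, had 128 ± 7.83 CPM in CAST-F1 KO and 48.3 ± 5.90 CPM in BL6J KO, and 79.7 ± 9.32 CPM in CAST-F1 WT and 61.9 ± 2.67 CPM in BL6J WT. The fourth was 1810010H24Rik, with 25.7 ± 2.33 CPM in CAST-F1 KO and 3.25 ± 0.347 CPM in BL6J KO, and 2.23 ± 0.173 CPM in CAST-F1 WT and 1.71 ± 1.07 CPM in BL6J WT.

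**Figure D5:**
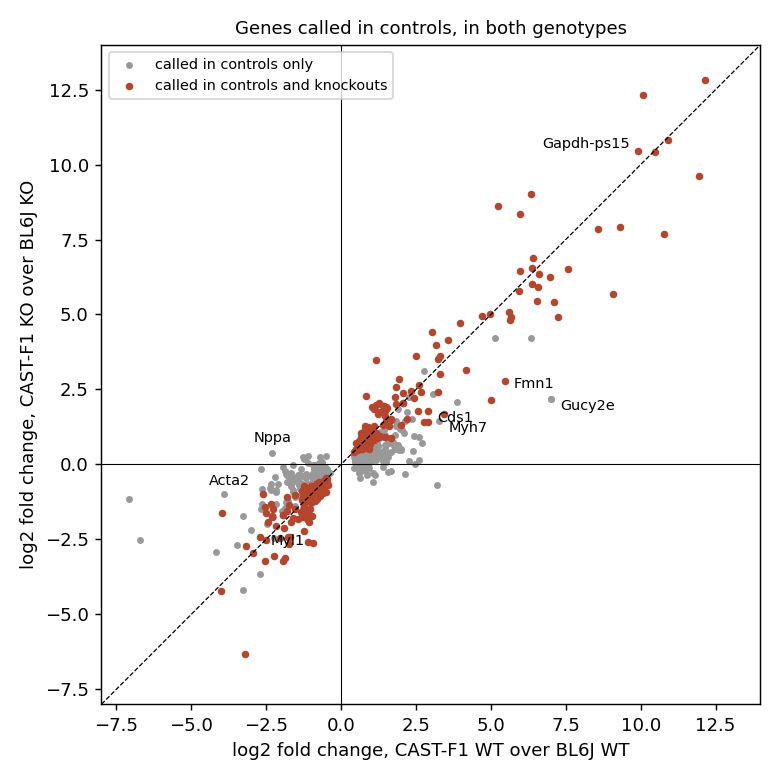
Log2 fold change of CAST-F1 KO over BL6J KO against that of CAST-F1 WT over BL6J WT for the 707 genes called in controls; the dashed line marks equal values and the 280 red genes were called in both. Most points lie in the quadrants of equal sign (671 of 707), and Fmn1 and Nppa are among those away from the line.

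The other F1 background was set beside CAST-F1. AJ-F1 WT against BL6J WT gave 402 calls (3.26%), 246 higher (1.99%) and 156 lower (1.26%), and shares the BL6J WT libraries with the comparison of CAST-F1 WT. CAST-F1 WT against AJ-F1 WT gave 649 calls (5.26%), 279 higher and 370 lower in CAST-F1 WT. Without AJ-F1 WT 2 these counts were 2065 and 1691, without BL6J WT 2 the first was 117, and without AJ-F1 WT 3 and 4 they were 275 and 493. Bdh1, Cds1, Cox8b, Acta2 and Oas2 stayed called in the comparison with CAST-F1 WT when AJ-F1 WT 3 and 4 were left out. The AJ-F1 WT level of Cox8b was 1233 ± 163 CPM, which CAST-F1 WT exceeded (log2 fold change 0.75 ± 0.17, adjusted p = 0.00997). For Acta2 it was 274 ± 62.7 CPM (log2 fold change -2.01 ± 0.26, adjusted p = 4.67e-05) and for Oas2 11.7 ± 1.87 CPM (log2 fold change -1.43 ± 0.31, adjusted p = 0.00719). Myh7 was at 264, 304, 213 and 324 CPM in the AJ-F1 WT libraries, and the difference of CAST-F1 WT from them did not pass (log2 fold change 1.05 ± 0.68, adjusted p = 0.383). Ribosomal protein genes had 2 members higher and 0 lower in CAST-F1 WT than in AJ-F1 WT, against a background of 2.26% higher, and 5 and 0 without AJ-F1 WT 3 and 4.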

How the data were processed

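RNA sequencing covered 21 mouse heart libraries, stranded and from polyA RNA per the labels' protocols. The authors deposited raw read counts per gene for 14732 genes, with a lowest total of 10 reads; HISAT, featureCounts, DESeq2 and the GRCm38.p6 build appear in the submitters' processing notes, without versions, and the use of strand in counting is not given in the sources used here. GRCm38 is a C57BL/6J genome, so reads with CAST alleles carry mismatches to it, and the effect on counts was not tested. The table's 42 columns of transformed values per sample and the authors' own comparisons were not used here.

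Columns were matched to samples by their labels. Of the genes, 12333 passed filterByExpr over 6 groups and held 99.9% of the reads. Differences were tested by quasi-likelihood F tests in edgeR (edgeR 4.0.16, limma 3.58.1, R 4.3.3; TMM, robust, two-sided, 21 libraries, 6 group means, common biological coefficient of variation 20.3%). Sharing the spread over all groups assumes that they vary alike. Total counts ran from 3848172 to 10738130. As alternatives, scaling used upper-quartile factors or the size factors of DESeq2 1.42.0, low genes were kept or had to reach 1 CPM in 3 samples, and the test was DESeq2's Wald test or weighted limma-voom; further ones were a replicate block, a fold change of at least 1.2, only the 7 or the 11 WT libraries, each library left out, and AJ-F1 WT 3 and 4 left out. The scripts were tested on simulated data.

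The comparison, the 39 gene lists (12 of markers; 963 genes, 839 tested) and the alternatives were chosen with earlier results of these data known. Genes were named by rule: a panel, the 12 largest differences each way among non-overlapping protein-coding genes that reach 5 CPM, the 8 highest-expressed each way with at least 1.5-fold, up to 4 members of each list with the smallest adjusted p, and genes called in the interaction. Some of these genes are not reported here, and list members beyond the rule are named because they were called. Of 184 genes that the rule names, 70 overlap another annotated gene. Positions come from RefSeq GRCm38.p6, and copies were aligned with Biopython 1.88 (Python 3.11.15).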

Additional observations from a re-analysis of the deposited data

Results flagged for a closer look

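A library far from the rest of its group was found for 8 of 205 genes examined in the 4 BL6J WT libraries, where chance alone gives about 1 in 20. BL6J WT 4 was high for Egf (9.83 CPM) and Ndrg4 (333 CPM) and low for Cdkn1c (12 CPM). BL6J WT 1 stood apart for Lmod3, a sarcomere gene (180 CPM), and Aox1, an aldehyde oxidase gene (31.0 CPM). BL6J WT 2 was high for Ndn (5.73 CPM) and Muc16 (10.1 CPM), and BL6J WT 3 for Manf, a secreted stress protein gene (72.2 CPM). The background difference in knockouts minus that in controls was called for 4 genes, at -2.67 for Fmn1, 2.80 for Kif5a, 1.04 for Bckdhb and 2.62 for 1810010H24Rik on the log2 scale.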

How the results depend on the processing

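The 707 calls between CAST-F1 WT and BL6J WT stayed within 1.5 times under the other scalings and filters (704 to 734), the DESeq2 Wald test (919) and the replicate block (491). They numbered 2248 with limma-voom, 355 against a fold change of at least 1.2, 1467 with only the 7 libraries, 290 with only the 11 WT libraries, 1122 without AJ-F1 WT 3, 1460 without AJ-F1 WT 3 and 4, and 305 to 590 with a control library left out. In knockouts the count of 631 became 1876 with limma-voom, 339 against a fold change of 1.2, 1398 without AJ-F1 WT 3 and 4, and 302 to 570 with a library left out. The 4 differences of the background effect became 2 with DESeq2 size factors, 2 with 1 CPM in 3 samples, 27 with the Wald test, 72 with limma-voom, 0 with the replicate block, 1 against a fold change of 1.2, 16 without AJ-F1 WT 3 and 4, and 0 to 3 with a library left out. For AJ-F1 WT the 402 calls became 707 with the Wald test, 217 with limma-voom, 247 with the block, 129 against a fold change of 1.2 and 117 to 2065 with a library left out. For CAST-F1 WT against AJ-F1 WT the 649 calls became 429 with the block, 318 against a fold change of 1.2 and 288 to 1691 with a library left out. The causes were not tested. Libraries with the same replicate number had r of 0.0712, -0.0844 and -0.0713 between CAST-F1 WT and BL6J WT, 0.0467 to 0.104 between CAST-F1 KO and BL6J KO, -0.0995 to -0.00588 between AJ-F1 WT and BL6J WT and 0.0667 to 0.192 between CAST-F1 WT and AJ-F1 WT. In none of these was every pair above 0.1, so the replicate block is a setting and not a pairing. Of 119 named genes called in controls, 64 kept their call under every setting, 55 lost it under at least 1, and 0 reversed. Those that lost it included Myom2, Ndufa13, Irx3, Hbb-b1, Btg2, Alas2, Porcn, Acta1, Ccl6, Glo1, Gpx3, Nlrp1a, Idh2, Hadh, Cry2, Nr4a2, Pmvk, Ndn, Cdkn1c, Tek, Myh11, Tspan6, Kif1c, Cox6c, Frmd5, Ndufs6, Atp5g3, Cox7c, Ephx2, Insig1, Snrpn, Commd1, Lrrn4, Hmga1, Fundc2, Asb11, Sh3kbp1, Ppp1cc, Nppa, Myh7, Per3, Rps24, H2-Q7, Mthfd2, Kcnv2, Slc7a5, Rpl22, Muc16, Zfp970, Pdlim5, Ier3, Ndufb2 and Aqp4. Depth limits the genes with few reads in a group.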

Other observations

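Of 42 antioxidant and xenobiotic genes, 4 were higher and 3 lower in CAST-F1 WT, while over all genes, 3.36% were higher and 2.37% lower. Gstp2, a glutathione transferase gene, averaged 56.0 ± 9.12 CPM in CAST-F1 WT and 13.3 ± 1.38 CPM in BL6J WT (log2 fold change 2.07 ± 0.24, adjusted p = 9.11e-06), whereas its close neighbour Gstp1 averaged 298 ± 23.8 CPM in CAST-F1 WT and 302 ± 15.7 CPM in BL6J WT (adjusted p = 0.982); reads of these similar genes may be divided with error. Cyp2d22, Gstm2 and Ces1d were higher too (1.10 ± 0.20, 0.74 ± 0.19 and 0.98 ± 0.27). Aox1, Ephx2, the soluble epoxide hydrolase gene, and Akr1b8 were lower (-1.13 ± 0.19, -0.56 ± 0.12 and -0.98 ± 0.28). Among 23 cholesterol synthesis genes, the squalene synthase gene Fdft1 (0.85 ± 0.17) and the lanosterol synthase gene Lss (1.47 ± 0.28) were higher, and Pmvk (-0.83 ± 0.24) and the sterol sensor gene Insig1 (-0.88 ± 0.25) were lower. Of 20 imprinted genes tested, Cdkn1c, Snrpn, Ndn and Commd1 were higher and 0 were lower, against a background of 3.36% higher. With a control library left out, 0 to 2 were higher, fewest without CAST-F1 WT 1, and with 1.2-fold as the least change tested there were 0. Snrpn, which is expressed from the paternal allele, averaged 215 ± 11.3 CPM in CAST-F1 WT and 134 ± 5.83 CPM in BL6J WT (log2 fold change 0.68 ± 0.17, adjusted p = 0.0167).

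Of 20 circadian clock genes, Per3 (18.0 ± 13.6 CPM in CAST-F1 WT and 52.7 ± 9.71 CPM in BL6J WT) and Cry2 (23.7 ± 4.86 CPM in CAST-F1 WT and 37.4 ± 2.73 CPM in BL6J WT) were lower. The time of day at collection is not in the labels. CAST-F1 WT 2 stood apart from the other CAST-F1 WT libraries for Per3, at 33.7 CPM, and the log2 fold change was -1.53 with it and -2.38 without it. Of 25 immediate early genes, Nr4a2 and Btg2 were higher and Ier3 was lower, with a median of 0.88 in controls and 0.06 in knockouts. Over all genes tested, 3.36% were higher and 2.37% lower in CAST-F1 WT. With a control library left out, 0 or 1 immediate early genes were higher and 0 or 1 lower. Their median was 1.02 for AJ-F1 WT over BL6J WT, and 0 were higher and 1 lower in CAST-F1 WT than in AJ-F1 WT. Their summed level ran from 3943 to 9196 CPM over the CAST-F1 WT libraries and 1959 to 4846 CPM over the BL6J WT libraries, and CAST-F1 WT 3 was the highest of these 7 libraries. Arc, a further activity-dependent gene named after its value was seen, had 14.1, 13.5 and 21.2 CPM in the CAST-F1 WT libraries, against 4.15, 4.39, 2.50 and 3.61 CPM in the BL6J WT libraries (log2 fold change 2.13 ± 0.34, adjusted p = 0.000486). Of 32 integrated stress response genes, Mthfd2 and Slc7a5 were lower and 0 were higher. Manf was the single call among 30 heat shock and chaperone genes (96.0 ± 10.2 CPM in CAST-F1 WT and 59.6 ± 8.48 CPM in BL6J WT). None of 14 glucocorticoid and metallothionein genes was called by edgeR, against 3 at an unadjusted p under 0.05, 2 by DESeq2's Wald test and 2 by limma-voom.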
